A study of Mus musculus with 21 samples.

Results

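Ribosome biogenesis genes encode the factors that transcribe ribosomal RNA, modify and cut it, and assemble it with ribosomal proteins into the small and large subunits. The 36 genes described here were chosen by name for these roles, and their symbols were matched in the count tables. The choice was made with earlier results of these data known, so their shares beside all genes are a description only. All 36 were found, of 17516 gene symbols in all, and each was present in all 21 libraries. They fall into 6 roles. Polr1a, Polr1b and Polr1c are subunits of RNA polymerase I, the enzyme that transcribes the long ribosomal RNA precursor. Ncl (nucleolin), Npm1 (nucleophosmin), Nolc1, Gnl3 (nucleostemin), Mybbp1a, Ddx21 and Pa2g4 are nucleolar proteins with several functions. Fbl (fibrillarin), Nop56 and Nop58 form the core of the box C/D ribonucleoproteins, which methylate ribosomal RNA. Dkc1, Nhp2, Gar1 and Nop10 form the box H/ACA ribonucleoproteins, which convert uridines of ribosomal RNA to pseudouridine. Wdr43, Rrp9, Utp20, Nop14, Noc4l, Rrp12 and Bysl act in assembly of the small subunit. Bop1, Pes1, Wdr12, Nop2, Nop16, Ebna1bp2, Rrp1b, Noc2l, Wdr74, Nip7, Ftsj3 and Rrs1 act in assembly of the large subunit.

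A resting T lymphocyte holds little cytoplasm and makes few ribosomes, and an activated one grows before it divides. Ribosome production in lymphocytes is known to respond to antigen receptor signals and to cytokines that signal through the shared beta and gamma chains of the IL-2 and IL-15 receptors. The transcription factor Myc is known to induce many nucleolar genes through the E-box sequence.

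The study profiled mouse OT1 CD8 T cells, whose transgenic T cell receptor recognises an ovalbumin peptide, by single-cell RNA sequencing. One library was made from naive cells (day 0). The other libraries were made from cells activated with beads that carry anti-CD3 and anti-CD28 antibodies and then cultured. Activated cells without added cytokine were taken at days 3 and 5. Activated cells with wild-type IL-2, with a mutant of it called IL-2v (named mutant IL-2bg in the labels), or with IL-15 were taken at days 3, 5 and 10, each at 5 and 50 IU/mL. The labels give no strain beyond OT1, no age and no number of animals. In the treatment labels, 50 IU/mL of IL-2 appears as interleukin-3 and 50 IU/mL of IL-15 as interleukin-16 on all 3 days; the titles give IL-2 and IL-15 and were followed. The extraction notes describe a sort of live CD44+ CD45.1+ CD8+ T cells from tumours, whereas the growth notes describe the culture; the sort cannot be placed with certainty for these libraries.

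Each condition is 1 library, so no difference below has a replicate check and no p-value is given. UMI counts were summed over the cells of a library and expressed as CPM, the gene's share of the library's UMIs scaled to a fixed total. An interval is the 95% Poisson interval of a level or of a ratio of levels, and covers counting error only. A difference is on the log2(CPM + 1) scale. A gene was tested in a pair of libraries if it reached 20 CPM in either one, and was called higher or lower if it differed by at least 2-fold. The percentage of all tested genes called in the same pair is given beside the count for the 36 genes. A median over the 36 genes includes those not tested, whereas a median over all genes does not. CPM is relative to all RNA caught from a cell, so a level says nothing of the RNA content of the cell.

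The libraries held 3250 to 7105 cells, 106456 in all, and 10589950 to 32648496 UMIs, with medians of 3016 to 5065 UMIs per cell. Between 27.7% and 42.7% of the UMIs came from ribosomal protein genes. Cells with an Mki67 or Top2a UMI, called cycling here, made up 3.01% of naive cells and up to 86.9% of a library. The rest are called noncycling, a name that stands only for the absence of these UMIs. The T cell marker Cd3d had a UMI in 93.0% to 99.5% of the cells, Cd3e in 72.0% to 92.8% and Cd3g in 78.9% to 97.2%. Cd8b1 had one in 54.5% to 92.0%. For Cd8a the range was 37.0% to 74.2%, with the lowest share in day 5 IL-2 at 50 IU/mL. Cd4 reached at most 1.49%. The B cell markers Ms4a1 and Cd79b reached at most 0.0209% and 7.45%, and the myeloid markers Lyz2 and Itgam at most 0.126% and 1.66%. Of the NK cell markers, Ncr1 reached at most 0.0157% of the cells, Klrb1c 13.0% and Fcer1g 17.7%, both in day 10 libraries; their part in the results was not tested. Any pair of libraries shared 1 to 19 cell barcodes, at most 0.340% of the smaller one. The barcode suffixes follow the alphabetical order of the titles except in 2 libraries, day 5 IL-2 at 50 IU/mL and day 5 IL-2v at 5 IU/mL, which are exchanged in that order. Hspa1a, a heat shock gene, was at 128 CPM in the first of these and at 65.8 CPM in day 3 IL-2 at 50 IU/mL. It was at no more than 1.28 CPM in the other 19 libraries, which include the second and also day 10 IL-2 at 50 IU/mL. Hspa1a thus did not mark IL-2 at 50 IU/mL on every day. The labels were kept, and counts over several pairs that hold either library are also given without both.

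The 36 genes were at their highest with IL-2v at 50 IU/mL at day 3. Of the 36, 31 had their highest level in that library, against 17.1% of the 7271 genes that reached 20 CPM in any library. Fbl, Nop10 and Ebna1bp2 were highest in IL-2v at 5 IU/mL at day 10, and Npm1 and Polr1c in IL-2 at 50 IU/mL at day 3. The lowest level of 22 of the 36 was in IL-2 at 50 IU/mL at day 5, against 10.0% of the 7271 genes. Summed over the 36 genes, the level was 3771 CPM in naive cells. It was 4611 CPM without cytokine at day 3 and 3528 CPM at day 5, the lowest sum. It reached 8496 CPM in IL-2v at 50 IU/mL at day 3, the highest, and 7304 CPM in IL-2 at the same dose and day. Npm1 and Ncl alone made up 41.7% to 73.4% of these UMIs. Without them the sum ranged from 1296 CPM in day 5 IL-2 at 50 IU/mL, through 2200.4 CPM in naive cells, to 4763 CPM in day 3 IL-2v at 50 IU/mL.

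**Figure D1:**
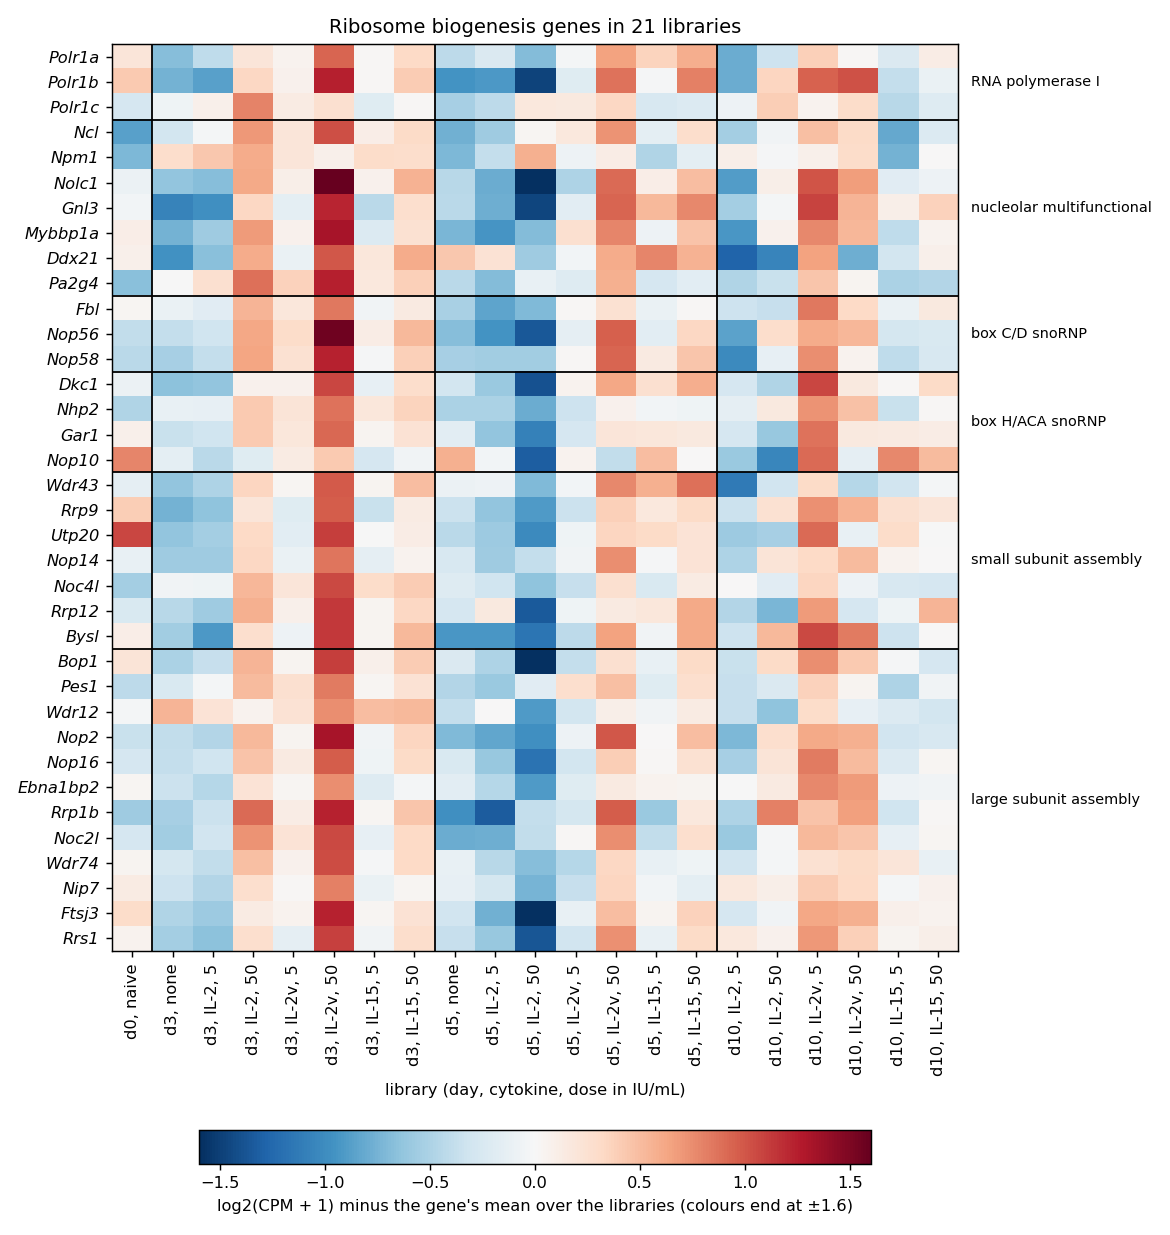
Level of each of the 36 genes (rows, grouped by role) in each of the 21 libraries (columns), as log2(CPM + 1) minus the gene's mean over the libraries. Most rows are reddest in the day 3 IL-2v 50 IU/mL column and bluest in the day 5 IL-2 50 IU/mL column, while Npm1 and Nop10 follow other orders.

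The spread between the highest and the lowest library differed among the genes. It was widest for Nolc1, a chaperone of nucleolar ribonucleoproteins, at 12.9-fold, from 17.6 CPM (interval 15.1 to 20.3) to 226 CPM (interval 220.2 to 232). Polr1b, the second-largest subunit of the polymerase, spanned 8.97-fold, but its lowest level rested on 26 UMIs. Ftsj3, a ribosomal RNA methyltransferase, and Bop1 spanned 7.86-fold and 7.84-fold. The narrowest spreads were those of Npm1 and Polr1c, 2.57-fold and 2.58-fold. Nop14 and Pes1 were next, both at 2.74-fold.

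Sequences around the start are given for the genes with an E-box and for some genes named in the IL-2v and IL-2 comparison. RefSeq promoter windows of 300 bases (250 before to 50 after the annotated start, build GRCm38.p6) were matched by symbol for 31 of the 36 genes. The E-box CACGTG, which is the same on both strands, was found in 5 of the 31 windows (16.1%), against 8.09% of 27025 genes and 12.5% of the 5795 genes that reached 20 CPM in any library and had a window. These 5 windows are shown as 30 bases on the gene's strand, with the E-box in capitals.
Nop2 (chr6:125131811-125131840, plus strand): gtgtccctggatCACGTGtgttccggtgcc
Utp20 (chr10:88826765-88826794, minus strand): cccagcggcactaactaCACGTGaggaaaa
Pes1 (chr11:3963965-3963994, plus strand): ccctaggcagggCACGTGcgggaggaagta
Mybbp1a (chr11:72441347-72441376, plus strand): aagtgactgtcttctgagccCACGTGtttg
Wdr43 (chr17:71616220-71616249, plus strand): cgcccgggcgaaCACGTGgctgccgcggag
The first base of the E-box lay 60 bases before the RefSeq start in Nop2, and inside the transcribed part of the window in the others. The motif CCGGAAG, searched on both strands, was in 9 of the 31 windows (29.0%), against 9.93% of all genes and 24.7% of the expressed ones. AAGATGGC was in 1 (Ftsj3), against 3.19% and 6.30%. A match is a description of letters, not of binding. Below are the 100 bases before the start of Nolc1 and Nop56, among the genes that differed most between IL-2v and IL-2, and of Polr1c, which had the smallest median difference in size; CCGGAAG is in capitals.
Nolc1 (chr19:46075747-46075846, plus strand): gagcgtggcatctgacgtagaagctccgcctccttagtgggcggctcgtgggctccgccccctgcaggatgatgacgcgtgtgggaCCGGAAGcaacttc
Nop56 (chr2:130274312-130274411, plus strand): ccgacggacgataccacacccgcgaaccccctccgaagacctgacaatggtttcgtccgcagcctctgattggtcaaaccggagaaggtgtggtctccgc
Polr1c (chr17:46248046-46248145, minus strand): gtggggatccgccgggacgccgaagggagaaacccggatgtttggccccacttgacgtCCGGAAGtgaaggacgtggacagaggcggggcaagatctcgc
The stretches of Nolc1 and Polr1c both hold CCGGAAG. Those of Polr1b and Mybbp1a, which had larger medians than Nolc1 and are not shown, hold no CCGGAAG. No E-box lies in the stretches shown, as their genes are not among the 5 listed above.

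After activation without cytokine, more of these genes were below than above their naive level in CPM. At day 3, 10 of the 36 were above it and 26 below, whereas 43.8% of all tested genes were above theirs. The median difference was −0.40, against −0.11 over the 6171 tested genes. Of 32 genes tested, 1 was called higher (11.1% of all tested genes) and 4 lower (8.31%); with a pseudocount of 10 CPM, 1 was called lower (4.21% of all). The higher one was Npm1, a nucleolar chaperone of histones, at 1076 CPM (interval 1061 to 1091) in naive cells and 2164 CPM (interval 2144 to 2183) at day 3, a ratio of 2.01-fold (interval 1.98 to 2.04); this call was lost with totals that leave out ribosomal protein and mitochondrial genes, and without cells above 2 times the median UMIs. Ncl, an RNA-binding protein of the nucleolus, was at 495 CPM in naive cells, its lowest level of all libraries, and at 741 CPM at day 3.

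The genes called lower were Utp20, Rrp9, Ddx21 and Gnl3. Utp20, a large scaffold protein of the small subunit precursor, was at 26.6 CPM (interval 24.3 to 29.0) in naive cells and 7.46 CPM (interval 6.37 to 8.69) at day 3. Rrp9, which binds the U3 small nucleolar RNA, was at 36.2 and 15.7 CPM, and the RNA helicase gene Ddx21 at 208 and 99.4 CPM. Gnl3, a nucleolar GTPase, was at 92.9 and 45.1 CPM. Over the roles, the median difference was −0.87 for the 3 polymerase subunits, −0.53 for the nucleolar proteins with several functions, −0.50 for box H/ACA, −0.49 for the small subunit, −0.31 for the large subunit and −0.10 for box C/D. Wdr12, a partner of Bop1 and Pes1, went the other way, from 47.9 to 71.7 CPM. Of 127 other ribosome biogenesis genes found in the tables, 107 were tested. Of these, 0 were called higher and 9 lower, against 11.1% and 8.31% of all tested genes. The share called lower was thus near that of all genes. Mdn1, the giant ATPase of large subunit maturation, was at 66.9 CPM in naive cells and 11.9 CPM at day 3. Mki67 was at 15.2 and 379 CPM in the same libraries, and cycling cells at 3.01% and 59.96%; levels in cycling and other cells are set apart further on. In the cells without an Mki67 or Top2a UMI, 9 of 32 members and 11.1% of all tested genes were called lower. The medians there were −0.68 over the 36 genes and −0.25 over all tested genes.

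Without cytokine, most levels at day 5 were within 2-fold of those at day 3. The median difference was 0.15 over the 36 genes and 0.00 over all 5785 tested genes; in cells without an Mki67 or Top2a UMI these medians were 0.39 and 0.12, and 4 of 30 members and 3.70% of all tested genes were called higher. Of 31 genes tested, Ddx21 was called higher (3.61% of all tested genes), at 99.4 CPM at day 3 and 265 CPM at day 5. Npm1 was called lower (9.47%), at 1075 CPM at day 5, next to its naive level; this call was lost with trimmed mean scaling and with totals that leave out ribosomal protein and mitochondrial genes. Cycling cells made up 59.96% of the day 3 library and 13.8% of the day 5 one.

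**Figure D2:**
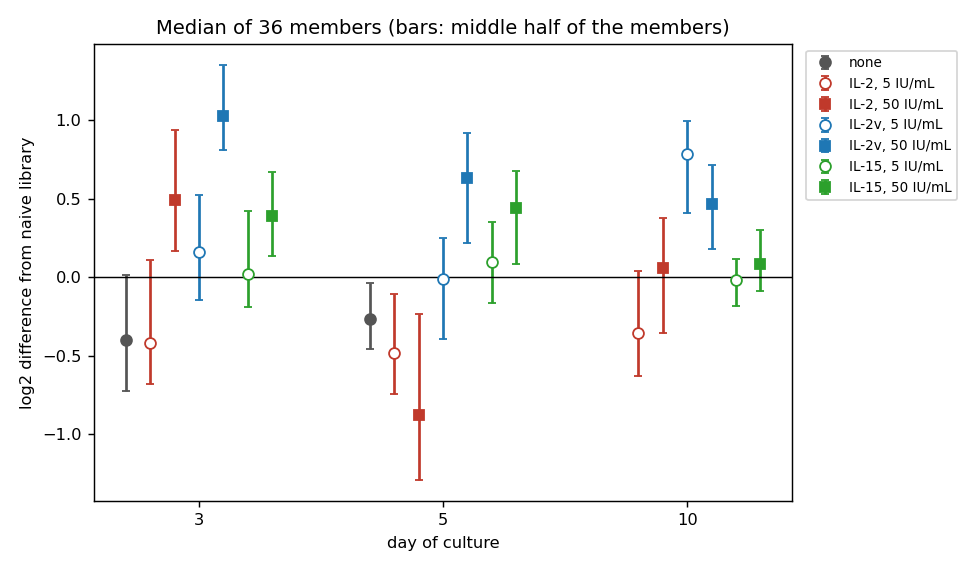
Median log2 difference of the 36 genes from the naive library (y axis) at days 3, 5 and 10 (x axis), by cytokine (colour) and dose (open circles 5 IU/mL, filled squares 50 IU/mL); bars span the 25th to the 75th percentile of the genes. The median is highest, 1.03, for day 3 IL-2v at 50 IU/mL and lowest, −0.88, for day 5 IL-2 at 50 IU/mL.

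At day 3, the median of the genes' differences from the library without cytokine was above 0 for every cytokine and dose, but only 0.05 for IL-2 at 5 IU/mL, where all tested genes had a median of 0.09; with trimmed mean scaling, or with totals that leave out ribosomal protein and mitochondrial genes, that one median falls to or below 0. The 6 libraries share 1 control library and are set side by side. IL-2v at 50 IU/mL stood out in size: 30 of the 36 genes were called higher and 0 lower, against 7.83% and 1.75% of all 6069 tested genes, and the median difference was 1.61 against 0.21. With IL-2 at 50 IU/mL, 10 of 34 were called higher (6.45% of all) and the median was 0.88; in cells without an Mki67 or Top2a UMI, 18 of 33 members and 10.96% of all tested genes were. With IL-15 at 50 IU/mL, 5 of 33 were called higher (0.819%), with a median of 0.74; in the same cells 12 of 33 members and 1.33% of all tested genes were. At 5 IU/mL, IL-2v had 0 of 32 called higher or lower (0.211% and 0.0704% of all) and a median of 0.51, with 34 of 36 genes and 68.9% of all tested genes above 0. IL-15 at 5 IU/mL had 1 of 32 called higher, Ddx21 (0.142%), and a median of 0.42. IL-2 at 5 IU/mL had 0 of 29 called in either direction (0.142% and 0.106%). No member was called lower with IL-2 at 50 IU/mL (2.74% of all tested genes), IL-15 at 50 IU/mL (0.261%) or IL-15 at 5 IU/mL (0.285%). With trimmed mean scaling, 25 of 35 members (4.87% of all) were called higher with IL-2v at 50 IU/mL. At that dose and scaling, 7 of 32 (4.81%) were with IL-2 and 4 of 33 (0.484%) with IL-15.

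In day 3 IL-2v at 50 IU/mL, the difference from no cytokine was seen in each role. Nolc1 was at 45.3 CPM (interval 42.6 to 48.2) without cytokine and 226 CPM (interval 220.2 to 232) with it, a ratio of 4.99-fold (interval 4.66 to 5.34). Polr1b was at 4.72 and 22.02 CPM, Polr1a, the largest subunit, at 17.8 and 56.5 CPM, and Polr1c, which RNA polymerase III also uses, at 28.2 and 35.7 CPM. Of the box C/D proteins, Nop56 was at 106 and 411 CPM, Nop58 at 88.9 and 303 CPM, and the methyltransferase Fbl at 128 and 249 CPM. Dkc1, the pseudouridine synthase of the box H/ACA proteins, was at 54.1 and 181 CPM, while its partner Nop10 was at 138 and 206 CPM. Nop2, which methylates cytosines of the large subunit RNA, was at 16.5 and 56.6 CPM. The role medians ran from 1.13 for box H/ACA to 1.97 for the nucleolar proteins with several functions. Npm1 was the one gene of the 36 below its level without cytokine, at 2164 and 1869 CPM. Wdr12 was at 71.7 and 82.1 CPM.

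The other ribosome biogenesis genes in this pair numbered 115 tested, of which 50 were called higher and 0 lower, against 7.83% and 1.75% of all tested genes. Mdn1 was at 11.9 CPM without cytokine and 46.4 CPM with IL-2v at 50 IU/mL, and Ppan, a large subunit factor, at 23.5 and 88.6 CPM. Polr1d, a subunit common to RNA polymerases I and III, was at 291 and 246 CPM. Ribosomal protein genes, the protein components of the finished ribosome, had a median difference of −0.17 in the same pair. Cycling cells made up 59.96% of the control library and 86.9% of this one; in cells without an Mki67 or Top2a UMI the median over the 36 genes was 1.91, and 32 of 36 members and 16.6% of all tested genes were called higher.

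At day 5, the genes were again higher with IL-2v and IL-15 at 50 IU/mL than without cytokine, and lower with IL-2 at 50 IU/mL. IL-2v at 50 IU/mL had 14 of 33 genes called higher and 0 lower, with a median of 0.86; in that pair 21.1% of all tested genes were called higher and 5.53% lower, and their median was 0.30. With trimmed mean scaling, 10 of 33 (12.9% of all) were called higher and 1 of 33 (11.6% of all) lower in that pair, with medians of 0.53 over the 36 genes and −0.09 over all. IL-15 at 50 IU/mL had 8 of 34 called higher and 0 lower (5.82% and 1.90% of all), with a median of 0.66 against 0.01; with trimmed mean scaling 5 of 34 (4.77% of all) were called higher. At 5 IU/mL none was called: the medians were 0.39 for IL-15, 0.21 for IL-2v and −0.21 for IL-2. In the IL-2 pair, 9 of 36 genes and 33.2% of all tested genes were above the level without cytokine. All tested genes had medians of −0.08, 0.08 and −0.13 in the same order; with trimmed mean scaling the IL-2v median was 0.06. In these 3 pairs, in the same order, 1.42%, 9.75% and 2.14% of all tested genes were called higher and 0.321%, 2.62% and 0.360% lower. Rrp1b, which recruits a phosphatase to the nucleolus, was at 18.1 CPM without cytokine, 73.3 CPM with IL-2v at 50 IU/mL and 41.5 CPM with IL-15 at 50 IU/mL. Nop56 was at 86.3, 271 and 176 CPM in the same libraries. Nop10 ran against the others, at 229 CPM without cytokine and 117 CPM with IL-2v at 50 IU/mL.

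With IL-2 at 50 IU/mL at day 5, 1 of 31 genes was called higher and 8 lower, against 16.5% and 7.54% of all tested genes, and the median was −0.55 against 0.11. The 8 were Nolc1, Gnl3, Ddx21, Dkc1, Nop10, Bop1, Ftsj3 and Rrs1. Nolc1 was at 51.6 CPM (interval 48.9 to 54.5) without cytokine and 17.6 CPM (interval 15.1 to 20.3) with IL-2. Nop10 was at 229 and 61.3 CPM, and Bop1, of the complex that matures the large subunit RNA, at 20.5 and 6.80 CPM. The gene called higher was Npm1, at 1075 CPM (interval 1062 to 1088) and 2638 CPM (interval 2608 to 2669.6). Polr1c and Rrp1b were also above their level without cytokine, at 33.4 and 28.0 CPM. Ubtf, a transcription factor of RNA polymerase I outside the 36 genes, was at 105 CPM without cytokine and 30.2 CPM with IL-2, whereas the exosome subunit gene Exosc8 was at 98.4 and 198 CPM. This library was the shallowest, with 10589950 UMIs and a median of 3016 UMIs per cell, and is one of the pair with exchanged barcode suffixes. The 8 are all the calls lower against no cytokine in the 12 pairs; without both libraries with exchanged suffixes 68 calls higher and 0 lower are left in 10 pairs (4.89% and 1.41% of all tests over the pairs). The Mki67 level of the day 5 IL-2 library was 430.2 CPM, against 36.3 CPM without cytokine, and Myc was at 151 and 55.1 CPM. With a pseudocount of 10 CPM, 2 genes were called lower in place of 8. Over the 12 pairs, 1.23% of all tests were then called lower, in place of 2.04%.

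**Figure D3:**
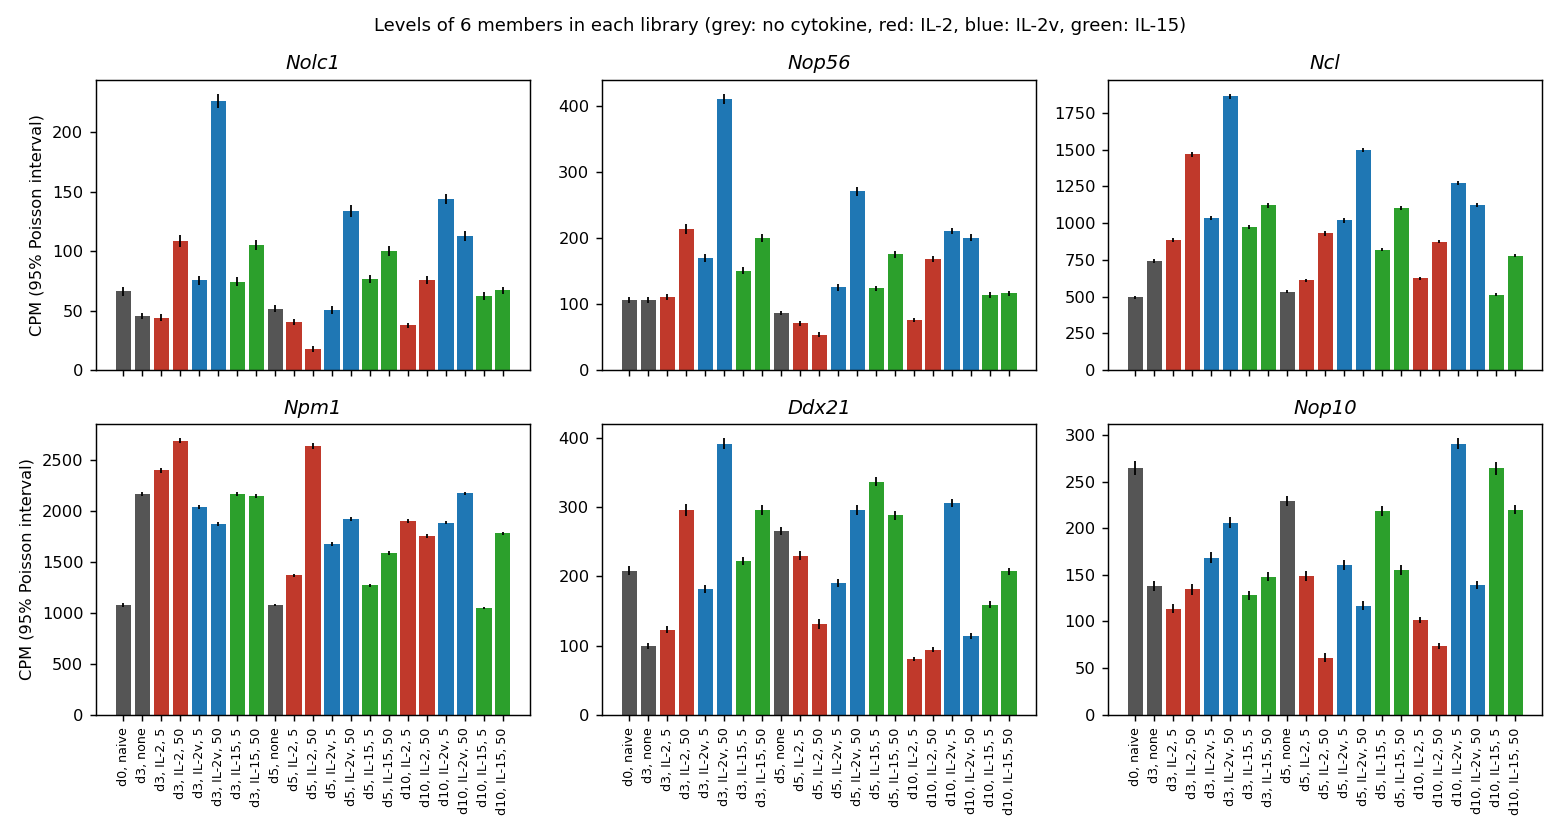
Level in CPM of Nolc1, Nop56, Ncl, Npm1, Ddx21 and Nop10 (bars from 0, with 95% Poisson intervals) in each of the 21 libraries. Nolc1 and Nop56 peak in day 3 IL-2v at 50 IU/mL and are lowest in day 5 IL-2 at 50 IU/mL, whereas Npm1 is high in both IL-2 50 IU/mL libraries of days 3 and 5, and Nop10 is high in naive cells.

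Between IL-2v and IL-2 at equal day and dose, most of the 36 genes were higher with IL-2v in all 6 pairs. Over all 36, 26 were higher in every pair. Among the 33 whose mean level over the 6 libraries of either cytokine was 20 CPM or more, 24 were, against 17.0% of 5839 tested genes, and 0 were lower in every pair, against 4.21%. Over all 36 genes, the median of their median differences was 0.60, against 0.06 over all tested genes. The medians over the 6 pairs were below 2-fold, though single pairs were not: 0 of the 33 had the same sign in all pairs with a median of at least 2-fold, a rule that 1.04% of all tested genes met as higher. With trimmed mean scaling 21 of 33 were higher in every pair, against 12.4% of all tested genes. Pairs of different day and dose are not replicates of each other.

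The difference was largest at day 5 with 50 IU/mL and at day 10 with 5 IU/mL. The medians of the 36 genes were 0.49 and 0.57 at day 3 with 5 and 50 IU/mL, 0.42 and 1.31 at day 5, and 1.13 and 0.32 at day 10. All tested genes had medians of 0.01, 0.05, 0.20, 0.16, −0.15 and 0.06 in the same order. At day 5 with 50 IU/mL, 24 of 33 genes were called higher (5.73% of all), and at day 10 with 5 IU/mL, 21 of 35 (6.78%). At day 3 with 50 IU/mL, Nolc1 and Ftsj3 were called higher (2 of 36, 1.22%). At day 5 with 5 IU/mL, Mybbp1a and Rrp1b were (2 of 30, 7.29%), a share near that of all genes. In the remaining pairs, day 3 with 5 IU/mL and day 10 with 50 IU/mL, none of the 36 was called higher (0.0346% and 2.77%). No gene of the 36 was called lower in any of the 6 pairs, where 0.0520%, 2.10%, 1.02%, 2.07%, 7.74% and 2.16% of all tested genes were. In cells without an Mki67 or Top2a UMI the 6 medians were 0.55, 0.70, 0.36, 1.29, 1.06 and 0.37, and with trimmed mean scaling 0.50, 0.53, 0.22, 1.12, 1.30 and 0.19. Without the 2 day 5 libraries with exchanged suffixes, both day 5 pairs drop out, and 29 of 33 genes were higher in each of the 4 remaining pairs, as were 1183 of all 5815 tested genes. In cells without an Mki67 or Top2a UMI, 11 of 36 members and 4.22% of all tested genes were called higher at day 3 with 50 IU/mL.

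Polr1b had the largest median difference, 0.93, with pairs between 0.68 and 2.35; its levels were low, 4.602 CPM with IL-2 and 17.6 CPM with IL-2v at day 10 and 5 IU/mL. Mybbp1a, a nucleolar Myb-binding protein, followed at 0.92: it was at 37.1 and 123 CPM in that pair and at 116 and 181 CPM at day 3 with 50 IU/mL. Nolc1 had a median of 0.91. With IL-2 it was at 43.8 and 109 CPM at day 3 (5 and 50 IU/mL), 40.3 and 17.6 CPM at day 5, and 37.7 and 75.5 CPM at day 10. With IL-2v it was at 75.4 and 226, 50.1 and 133, and 144 and 113 CPM. Each IL-2v level of Nolc1 was above the IL-2 level of the same day and dose, and the smallest ratio was 1.25-fold (interval 1.13 to 1.37), at day 5 with 5 IU/mL. Nop56 had a median of 0.87, Dkc1 of 0.85, Gnl3 of 0.85 and Bysl, a late small subunit factor, of 0.85. The lowest pair of Dkc1 was 0.63 and that of Ftsj3 0.63.

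The role medians of these differences lay between 0.53 for the large subunit factors and for the nucleolar proteins with several functions, and 0.78 for box C/D. 10 of the 36 genes did not keep 1 direction. Npm1 was above 0 in 2 of 6 pairs, with a median of −0.12: at day 3 with 50 IU/mL it was at 2686 CPM with IL-2 and 1869 CPM with IL-2v, and at day 5 with 50 IU/mL at 2638 and 1921 CPM. Polr1c was above 0 in 4 of 6, with a median of 0.09. Ddx21, Wdr43, Noc4l, Rrp12, Wdr12, Rrp1b, Wdr74 and Nip7 were each above 0 in 5 of 6. Of 110 other ribosome biogenesis genes tested, 62 were higher in every pair and 1 lower, against 17.0% and 4.21% of all tested genes. Their median was 0.34. With trimmed mean scaling 36 of the 110 were higher in every pair, against 12.4% of all tested genes. The largest medians among the 110 were those of Ddx56 (0.79), Ppan (0.76) and Rrp15 (0.71), all large subunit factors, and the lowest that of Exosc8 (−0.23).

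**Figure D4:**
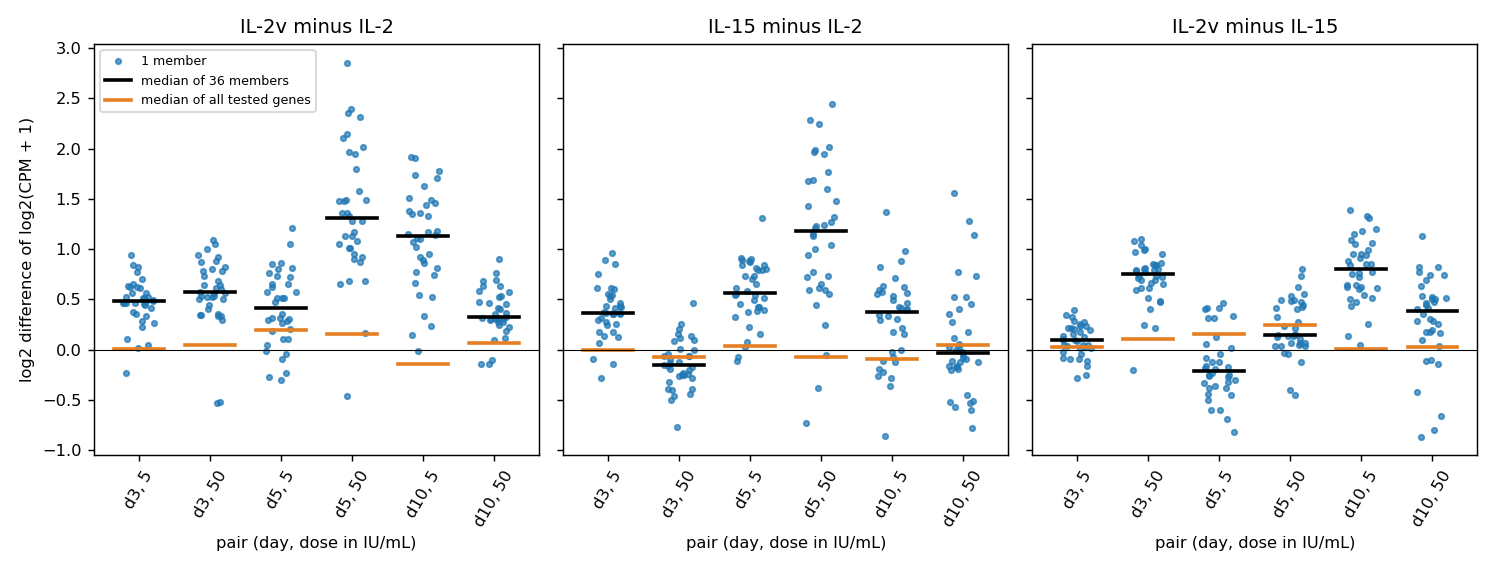
Log2 difference of each of the 36 genes (points) in the 6 pairs of equal day and dose (x axis) for IL-2v against IL-2, IL-15 against IL-2 and IL-2v against IL-15, with the median of the 36 genes (black) and of all tested genes (orange). The black line is above the orange one in every IL-2v against IL-2 pair, and is at 1.31 and 1.13 in the day 5 50 IU/mL and day 10 5 IU/mL pairs.

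Between IL-15 and IL-2, 6 of 33 genes were higher with IL-15 in every pair, against 7.68% of 5718 tested genes, and 0 were lower in every pair, against 9.58%. The median over all 36 genes was 0.43, against −0.01 over all tested genes. In cells without an Mki67 or Top2a UMI, 3 of 32 were higher in every pair, against 8.28% of all tested genes. The largest of the 6 pairs was day 5 with 50 IU/mL, where 20 of 34 genes were called higher (4.29% of all) with a median of 1.18. Ddx21 was at 131 CPM with IL-2 and 288 CPM with IL-15 in that pair, and Gnl3 at 33.9 and 164 CPM. At day 3 with 50 IU/mL the direction was the other one, with a median of −0.16 against −0.07 over all tested genes. There 10 of 36 genes and 42.1% of all tested genes were above their IL-2 level, and 0 of 34 were called higher or lower (2.24% and 3.62% of all). At day 10 with 50 IU/mL the median was −0.04; it changes sign when ribosomal protein and mitochondrial genes are left out of the totals (0.20) and in noncycling cells (0.02). Nop10, Rrp12 and Ddx21 were called higher there, 3 of 34 against 9.86% of all tested genes, a share near that of all genes. Nop10 was at 74.1 CPM with IL-2 and 219.9 CPM with IL-15. At 5 IU/mL the medians were 0.37, 0.57 and 0.37 at days 3, 5 and 10. Gnl3 was called higher at day 5 (1 of 32, 0.426% of all) and Nop10 at day 10 (1 of 31, 2.42%). No member was called lower in any of the 6 pairs, where 0.452%, 3.62%, 0.948%, 8.01%, 9.19% and 11.6% of all tested genes were. Without the day 3 pairs, 10 of 32 genes were higher in every remaining pair, as were 892 of all 5603 tested genes. Without the day 5 pairs, 7 of 32 were higher and 2 lower in every remaining pair (647 and 908 of all 5802), and the median was 0.12. Without the day 5 IL-2 50 IU/mL library, 6 of 32 were higher in every remaining pair (461 of all 5678), and the median was 0.33.

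Between IL-2v and IL-15, 9 of 33 genes were higher with IL-2v in every pair, against 19.1% of 5810 tested genes, and 0 were lower in every pair, against 8.02%. The median over all 36 genes was 0.32, against 0.10 over all tested genes. With trimmed mean scaling 5 of 33 were higher in every pair, against 13.9% of all tested genes, and with totals without ribosomal protein and mitochondrial genes 5 of 36, against 12.2%: shares near those of all genes. The largest differences were at day 10 with 5 IU/mL, with 8 of 35 genes called higher (10.7% of all) and a median of 0.81, where all 36 genes and 50.2% of all tested genes were above 0, and at day 3 with 50 IU/mL, with a median of 0.76 and Nolc1, Mybbp1a and Nop56 called higher (1.78%). In cells without an Mki67 or Top2a UMI, 3 of 35 members and 5.93% of all tested genes were called higher in the day 10 pair, and 20 of 36 members and 7.72% of all tested genes in the day 3 pair. At day 5 with 5 IU/mL the median was −0.21 (−0.42 with trimmed mean scaling). There 10 of 36 genes were above their IL-15 level and 26 below it, whereas 66.2% of all tested genes were above theirs. Ddx21 was at 337 CPM with IL-15 and 190.2 CPM with IL-2v. That pair holds the IL-2v library with an exchanged suffix, and without the day 5 pairs 22 of 33 genes were higher in every remaining pair, as were 1322 of all 5778 tested genes. At day 5 with 50 IU/mL the median was 0.15 against 0.24 over all genes, and its sign changes with trimmed mean scaling (−0.09) and without ribosomal protein and mitochondrial genes in the totals (−0.04).

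The dose comparison differed by day. At day 3, the genes were higher at 50 than at 5 IU/mL with each cytokine: the median was 0.83 for IL-2 (9 of 34 called higher, 3.48% of all), 0.97 for IL-2v (16 of 36, 2.21%) and 0.31 for IL-15 (0 of 33, 0.0176%), with 35 of 36 genes above 0 for each. Of all tested genes, 59.2%, 62.5% and 60.6% were above 0 in the same order. At day 5 it was 0.65 for IL-2v (7 of 33, 4.21%), 0.31 for IL-15 and −0.42 for IL-2, where Nolc1 and Nop10 were called lower (2 of 26, 3.40%). All tested genes had a median of 0.22 in that IL-2 pair. The day 5 pairs of IL-2 and of IL-2v each hold a library with an exchanged suffix. Without both libraries, 28 calls higher and 3 lower were left over 7 dose pairs (3.26% and 3.73% of all tests), in place of 35 and 5 over 9. At day 10 the IL-2 median was 0.37, with Mybbp1a, Nop56 and Rrp1b called higher (3 of 33, 6.57%), the IL-15 median 0.16, and the IL-2v median −0.32. Of the 3 NK cell markers, 2 differed between the doses at day 10: Fcer1g had a UMI in 2.87% and 17.7% of cells at the lower and the higher IL-2 dose and in 0.453% and 7.58% with IL-2v, and Klrb1c in 6.49% and 8.71% with IL-2 and 1.34% and 13.0% with IL-2v. With IL-15 neither passed 0.947%, and Ncr1 was at 0 in 5 of the 6 day 10 libraries. Their part in the day 10 dose and cytokine differences was not tested. In the day 10 IL-2v pair 6 of 36 genes were higher and 30 lower at the higher dose, while 39.4% of all tested genes were higher. Ddx21, Nop10 and Utp20 were called lower in that pair (3 of 35, 6.14%). All tested genes had a median of −0.13 there. With trimmed mean scaling the calls higher became 5 of 32 (3.04% of all) for IL-2 at day 3, 2 of 33 (2.21% of all) for IL-2v at day 5 and 10 of 33 (10.8% of all) for IL-2 at day 10, where the median became 0.68. The calls lower for IL-2 at day 5 became 4 of 28 (6.02% of all). The medians for IL-15 at days 5 and 10 became 0.17 and 0.28. In cells without an Mki67 or Top2a UMI, 14 of 33 members and 5.65% of all tested genes were called higher for IL-2 at day 3, and the median for IL-2v at day 10 was −0.18.

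Rrp1b showed the widest dose difference at day 10 with IL-2, at 25.8 CPM with 5 IU/mL and 64.9 CPM with 50 IU/mL. Myc ran the other way in the same pair, at 200.3 and 24.4 CPM. In the day 10 IL-2v pair Myc was at 162 and 67.0 CPM, Mki67 at 281 and 112 CPM, and Ddx21 at 306 and 113 CPM. At day 3 with 50 IU/mL, Myc was at 225 CPM with IL-2 and 219 CPM with IL-2v, while Nolc1 was at 109 and 226 CPM. At day 5, Myc was at 209 CPM with 5 IU/mL IL-2v and 158 CPM with 50 IU/mL, and Nolc1 at 50.1 and 133 CPM. The part of Myc in the levels was not tested.

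From day 5 to day 10, the median difference was above 0 in 3 cytokine conditions and below 0 in the others. With IL-2v at 5 IU/mL, 9 of 35 were called higher (1.98% of all), with a median of 0.74 against −0.10, and 35 of 36 genes and 41.3% of all tested genes were above 0. Nolc1 was at 50.1 CPM at day 5 and 144 CPM at day 10, Gnl3 at 85.1 and 203 CPM, and Bysl at 13.3 and 38.7 CPM. With IL-2 at 50 IU/mL, 12 of 33 were called higher (5.99%) with a median of 0.63 against −0.25 over all genes, from the day 5 library in which most members were at their lowest. Npm1 went down in that pair, from 2638 to 1753 CPM. Both of these pairs hold a day 5 library with an exchanged suffix, and neither can be given without it. They hold all 21 calls higher of the 6 pairs; without both libraries 0 calls higher and 5 lower are left in 4 pairs (2.09% and 5.54% of all tests). The medians were 0.16 for IL-2 at 5 IU/mL, −0.24 for IL-2v at 50 IU/mL, −0.21 for IL-15 at 5 IU/mL and −0.29 for IL-15 at 50 IU/mL. All tested genes had medians of 0.26, −0.37, 0.08 and −0.14 in the same order. With trimmed mean scaling the median of the 36 genes with IL-2v at 50 IU/mL becomes 0.14, a change of direction, while those with IL-2 at 5 IU/mL and IL-15 at 50 IU/mL become 0.00 and −0.10; with IL-2v at 5 IU/mL 14 of 35 (4.04% of all) were then called higher. Ddx21 was called lower with IL-2 at 5 IU/mL (2.02%), IL-2v at 50 IU/mL (11.6%) and IL-15 at 5 IU/mL (3.46%), and Wdr43, an early small subunit factor, in the first and second of these. The members called lower were 2 of 29, 2 of 33 and 1 of 32 in the same order. In the IL-2v and IL-15 pairs this share was below that of all tested genes. With IL-2 at 5 IU/mL, Ddx21 was at 230.2 CPM at day 5 and 80.2 CPM at day 10.

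Npm1, Nop10 and Ddx21 had orders of their own. Npm1 was lowest with IL-15 at 5 IU/mL at day 10, at 1047 CPM (interval 1034 to 1060.2). It was next lowest without cytokine at day 5, at 1075 CPM (interval 1062 to 1088), and in naive cells, at 1076 CPM (interval 1061 to 1091); the intervals of these last libraries overlap each other and lie just above the first. At day 3, by contrast, Npm1 ranged over the 7 libraries from 1869 to 2686 CPM. Nop10, the smallest protein of the box H/ACA core, was at 264 CPM (interval 257 to 272) in naive cells and 264 CPM (interval 257 to 271) with IL-15 at 5 IU/mL at day 10, levels whose intervals overlap, and higher only with IL-2v at 5 IU/mL at day 10, at 290.5 CPM (interval 285 to 296). With IL-2 it was 102 CPM at 5 IU/mL and 74.1 CPM at 50 IU/mL at day 10. Ddx21 was at 337 CPM with IL-15 at 5 IU/mL at day 5, second to the 391.8 CPM of IL-2v at 50 IU/mL at day 3. The other box H/ACA genes, Dkc1, Nhp2 and Gar1, had their highest level in that day 3 library, at 181, 230.2 and 97.3 CPM.

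The assembly factors not yet described are given in 6 libraries, in the order naive, day 3 without cytokine, day 3 IL-2v at 50 IU/mL, day 5 IL-2 at 50 IU/mL, day 10 IL-2 at 5 IU/mL and day 10 IL-2v at 5 IU/mL. Of the small subunit factors, Nop14 was at 46.1, 33.3, 91.5, 38.1, 35.2 and 62.4 CPM. Noc4l, its binding partner, was at 16.8, 24.1, 52.9, 15.7, 25.2 and 32.1 CPM. Rrp12, a factor of subunit export, was at 11.3, 9.71, 30.8, 4.72, 9.51 and 22.3 CPM. All 3 had their highest level of any library in day 3 IL-2v at 50 IU/mL, and Rrp12 had its lowest, from 50 UMIs, in day 5 IL-2 at 50 IU/mL. Of the large subunit factors, Rrs1, which helps bring in the 5S ribonucleoprotein, was at 30.9, 20.05, 64.3, 10.9, 33.6 and 48.7 CPM. Pes1, the partner of Bop1 and Wdr12, was at 33.1, 37.5, 80.4, 39.5, 34.4 and 58.0 CPM. Ebna1bp2 was at 67.7, 52.2, 112, 35.03, 65.9 and 114 CPM. The intervals of Ebna1bp2 in these day 3 and day 10 IL-2v libraries overlap, whereas Pes1 and Rrs1 were higher in the day 3 one. Nop16 was at 22.04, 20.4, 53.3, 11.2, 18.3 and 48.5 CPM. Noc2l was at 64.8, 52.9, 164, 59.4, 51.4 and 112 CPM. Wdr74 was at 35.3, 28.0, 71.3, 20.9, 27.4 and 40.4 CPM, and Nip7 at 47.3, 34.1, 75.8, 25.2, 48.3 and 57.0 CPM. In each of these genes the day 10 level with IL-2v at 5 IU/mL was above that with IL-2 at 5 IU/mL. Outside the assembly factors, Pa2g4, a growth-regulated nucleolar protein, was at 92.9, 148, 351, 137, 106 and 202 CPM, and naive cells were among its lowest libraries.

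Within libraries, the median difference of these genes in CPM between cycling and other cells ran from −0.20 to 0.45. In several libraries it was near that of all tested genes, and in others above it. The median difference between cells with and without an Mki67 or Top2a UMI was 0.41 without cytokine at day 3, where 34 of 36 genes were above 0 and all tested genes had a median of 0.12, and 0.45 with IL-15 at 5 IU/mL at day 3, against 0.12 over all genes. With IL-2 it was 0.40 at 50 IU/mL at day 10, with 35 of 36 genes above 0, against 0.12 over all genes. At 5 IU/mL at day 3 it was 0.38, with 34 of 36 above 0, against 0.10. It was 0.09 against 0.10 with IL-15 at 50 IU/mL at day 5, and 0.06 against 0.07 with IL-2v at 50 IU/mL at day 10. It was −0.06 in IL-2v at 50 IU/mL at day 3, with 9 of 36 above 0 and 0.05 over all genes, and −0.20 against 0.15 in naive cells, of which 144 were cycling by this rule. Nop56 was the gene with the largest difference without cytokine at day 3, at 1.205, and Nop58 led in several day 5 and day 10 libraries. A UMI of either marker is caught more often in cells with more UMIs, and the part of depth in this split was not tested.

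To compare cells at equal depth, each cell was thinned to 2000 UMIs; 57 to 393 shallower cells per library were left out. The 34 genes other than Npm1 and Ncl then gave a mean of 4.32 UMIs per naive cell (10th to 90th percentile 1 to 8) and 3.25 per cell without cytokine at day 3 (1 to 6). With IL-2v at 50 IU/mL at day 3 the mean was 9.60 (5 to 15), and 0.154% of the cells had none of these UMIs. With IL-2 at 50 IU/mL at day 5 it was 2.56 (0 to 5), and 12.7% of the cells had none. The cells of these libraries overlapped little: the 10th percentile of the first equalled the 90th percentile of the second. With IL-2v at 5 IU/mL at day 10 the mean was 7.14 (3 to 12), against 2.94 (0 to 6) with IL-2 at the same dose. In noncycling cells of the same 2 libraries the means were 6.61 and 2.88. Without cytokine at day 3 the means were 3.64 in cycling and 2.63 in noncycling cells. Cells of 1 library are not replicates, and these percentiles describe the cells only.

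**Figure D5:**
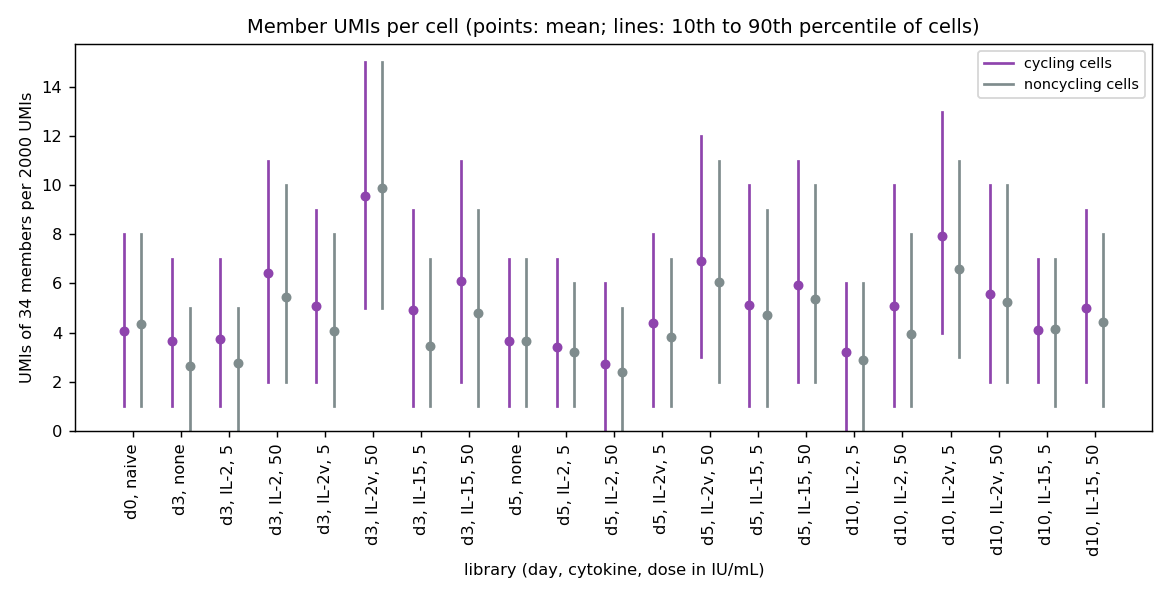
UMIs of the 34 genes other than Npm1 and Ncl per cell after thinning to 2000 UMIs (y axis), in cycling (purple) and noncycling (grey) cells of each library; points are means and lines run from the 10th to the 90th percentile of cells. The ranges of cycling and noncycling cells overlap in each library, and both kinds are highest in day 3 IL-2v at 50 IU/mL.

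Some of the counts could hold reads of other genes. Npm1 (ENSMUSG00000057113.13, chr11:33152287-33163206, minus strand), Fbl (ENSMUSG00000046865.7, chr7:28169710-28179269, plus strand) and Pes1 (ENSMUSG00000020430.12, chr11:3963975-3980004, plus strand) each have 1 other annotated transcript of at least 95% identity over at least 50% of their length in the GRCm38 annotation, and none of these copies is in the tables. Exons of Noc2l (ENSMUSG00000095567.7, chr4:156236010-156247616, plus strand) overlap Samd11 on the opposite strand over 20.9% of their length, and those of Bysl (ENSMUSG00000023988.8, chr17:47599331-47611492, minus strand) overlap Ccnd3, also on the opposite strand, over 9.37%. In the other members, the overlap with any single gene was at most 5.27%. Nop56 overlaps snoRNA genes on its own strand over 2.44%, 2.10%, 1.76% and 1.71%. Ncl, Gnl3, Nop58 and Pa2g4 also overlap snoRNA or miRNA genes on their own strand, each over at most 3.21%. How reads were assigned by strand is not given in the sources used here.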

How the data were processed

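The data are UMI counts per gene and cell, deposited by the authors as 1 table per library, with no normalisation. Cell Ranger, Seurat 3.0.2 and 4.0.1 and the genome build mm10 are named in the submitters' processing notes; the annotation, cell filters and treatment of doublets are not given in the sources used here. Barcodes below 1000 UMIs or 500 genes, or above 10% mitochondrial UMIs, were removed (2 of 106458). No doublet caller was run; cells above 2 times their library's median UMIs, 2.60% to 8.82% of a library, were left out as an alternative. Counts were summed per library and scaled to CPM. Differences were taken on log2(CPM + 1) among genes at 20 CPM or more in either library (on average over pairs for the 3 cytokine comparisons). Other settings were trimmed mean scaling (edgeR 4.0.16 in R 4.3.3), totals without ribosomal protein and mitochondrial genes, no filter, a pseudocount of 10, noncycling cells and a call at a log2 difference of 0.58. Calculations used Python 3.11.15, numpy 2.4.6, scipy 1.17.1 and pandas 2.3.3, and were tested on simulated counts. The members, the 127 other genes and the roles were chosen with earlier results of these data known. Within each role the genes with the highest and lowest difference were named first, up to 3 in each direction of the other genes, and Myc, Mki67 and Top2a; further members and Hspa1a were named after their values were seen. Older symbols in the list (Gltscr2, Skiv2l2, Nhp2l1) were matched to Nop53, Mtrex and Snu13. Promoter windows came from RefSeq (GRCm38.p6) and gene positions from GENCODE on GRCm38.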

Additional observations from a re-analysis of the deposited data

Results flagged for a closer look

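In 3 genes that reached 20 CPM in both pairs concerned, the dose difference (50 minus 5 IU/mL) was at least 2-fold in opposite directions in different conditions; each rests on 1 library per arm, and the difference between the conditions was not tested. Nolc1 had a difference of 1.57 with IL-2v at day 3 and −1.15 with IL-2 at day 5, where the day 5 IL-2 50 IU/mL library is the shallowest and one of those with an exchanged barcode suffix. Ddx21 had a difference of 1.26 with IL-2 at day 3 and −1.42 with IL-2v at day 10. Utp20 had a difference of 1.26 with IL-2v at day 3 and −1.03 with IL-2v at day 10, and its levels in these 4 libraries were 10.7, 27.1, 23.6 and 11.1 CPM. Rrp12 and Bop1 ranged from −1.50 to 1.13 and from −1.20 to 1.07 over the dose pairs, but were below 20 CPM in both libraries of the lowest pair, IL-2 at day 5.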

How the results depend on the processing

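The labels carry no replicate numbers; the cytokine comparisons are within pairs of equal day and dose, and a model blocked on day and dose was not run. The medians of single pairs that changed sign are given in the report; the one largest in size, day 10 minus day 5 with IL-2v at 50 IU/mL, went from −0.24 to 0.14 with trimmed mean scaling. Trimmed mean scaling moved the median of all tested genes by between −0.39 and 0.41 over the 47 pairs. Trimmed mean scaling changed the genes called lower without cytokine (day 5 minus day 3) from 1 to 0 (8.25% of all genes), those higher with IL-2v than IL-15 in every pair from 9 to 5 (13.9%), and those lower at day 10 than day 5 from 5 to 3 (4.86%). The same scaling changed calls against no cytokine from 69 to 54 higher and from 8 to 11 lower (4.61% and 3.29% of all tests). Dose calls went from 35 to 28 higher and from 5 to 7 lower (4.34% and 3.16%), and day 10 calls higher from 21 to 30 (4.42%). Totals without ribosomal protein and mitochondrial genes changed activation calls higher from 1 to 0 (10.5% of all genes), no-cytokine calls lower from 1 to 0 (10.0%), genes with one sign in all pairs and a median of at least 2-fold for IL-15 over IL-2 from 0 to 2 (0.714%), IL-2v over IL-15 in every pair from 9 to 5 (12.2%), and dose calls lower from 5 to 9 (3.78%). A pseudocount of 10 changed activation calls lower from 4 to 1 (4.21% of all genes), calls lower against no cytokine from 8 to 2 (1.23%), dose calls from 35 to 19 higher and from 5 to 3 lower (2.85% and 1.98%), and day 10 calls higher from 21 to 9 (1.57%). It also changed calls higher for IL-2v over IL-2, summed over the pairs, from 49 to 32 (2.08% of all tests). In noncycling cells, activation calls lower became 9 (11.1% of all genes), no-cytokine calls higher 4 (3.70%), genes with one sign in all pairs and a median of at least 2-fold for IL-2v over IL-2 5 (0.573%), and IL-15 over IL-2 in every pair 3 in place of 6 (8.28%). Without cells above 2 times the median UMIs, activation calls higher became 0 (10.97% of all genes). With a call at a log2 difference of 0.58, about 1.5-fold, calls higher and lower were 3 and 10 for activation (19.7% and 23.4% of all genes), 3 and 2 without cytokine (12.7% and 18.4%), 160 and 16 in place of 69 and 8 against no cytokine (14.2% and 6.31% of all tests over the pairs), 104 and 16 for dose (11.51% and 9.65%), and 46 and 16 for day 10 (9.46% and 18.5%). Summed over 6 pairs they were 101 and 0 in place of 49 and 0 for IL-2v over IL-2 (11.8% and 7.75%), 59 and 5 in place of 25 and 0 for IL-15 over IL-2 (8.98% and 12.9%), and 66 and 7 in place of 11 and 0 for IL-2v over IL-15 (15.5% and 7.70%). At that size 15, 4 and 3 genes had one sign in all pairs and such a median for IL-2v over IL-2, IL-15 over IL-2 and IL-2v over IL-15 (5.15%, 1.45% and 7.83% of all genes). Leaving out day 3, chosen after seeing the data, gave 7 genes with one sign in all pairs and a median of at least 2-fold for IL-2v over IL-2 (3.28% of all genes); for IL-15 over IL-2, 10 were higher in every pair (15.9%) and 2 had one sign and such a median (0.892%). Without day 5, or without the 2 libraries with exchanged suffixes, 22 genes were higher with IL-2v than IL-15 in every pair (22.9% and 22.7% of all genes). Without these 2 libraries, also chosen after seeing the data, calls lower became 0 against no cytokine (1.41% of all tests) and 3 for dose (3.73%), calls higher 0 for day 10 (2.09%), and calls higher summed over the pairs 23 in place of 49 for IL-2v over IL-2 (2.70%) and 5 in place of 25 for IL-15 over IL-2 (2.99%). The cause of these changes was not tested. Genes at low levels, such as Polr1b and Utp20, rest on few UMIs in the shallow libraries.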
